A study of Caenorhabditis elegans with 9 samples.

Results

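The genes described here were chosen by their measured levels in these libraries. They are those whose levels followed the order of *atf-4* mRNA, or its exact reverse, across 3 strains of *Caenorhabditis elegans*. They were found in whole L4 larvae of ATF-4OE, of *atf-4(tm4397)* and of WT. A gene was taken when its 3 libraries of each strain did not overlap those of the next, with WT in the middle, when the higher group mean exceeded the lower by 25% or more at each step, and when its level reached 5 parts of 1000000 (ppm) in at least 1 library. A ppm is 1 part of 1000000 of a library's summed level, a read density per gene length, so levels can be set side by side between genes. Of 11287 genes with the level needed, 86 met the rule. They were 62 genes highest in ATF-4OE and lowest in *atf-4(tm4397)* (0.549% of the genes tested) and 24 genes lowest in ATF-4OE and highest in *atf-4(tm4397)* (0.213%). *atf-4* itself and *rol-6*, which the transgene carries, were left out. Because these same 9 libraries chose the genes, the differences between strains are given for them as descriptions, with no test.

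ATF-4OE (*ldIs119*) carries an integrated transgene with the genomic *atf-4* sequence fused to GFP behind its own promoter, in an outcrossed line made from the array *wbmEx26*, and the co-injection marker *rol-6(su1006)*. *atf-4(tm4397)* (strain LD1325) has a deletion that takes the translation start and the first exon. WT was N2. Each strain had 3 replicates of about 20000 animals, grown at 20 °C on bacteria, with the 3 strains of each replicate raised side by side. Since ATF-4OE holds both the *atf-4* transgene and the *rol-6* marker, the part of each in its levels cannot be told apart.

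ATF-4 is a basic leucine zipper transcription factor, the worm counterpart of mammalian ATF4. When the translation initiation factor eIF2 is phosphorylated, as in the integrated stress response, most protein synthesis drops while the *atf-4* message is translated more. In mammals, ATF4 is known to raise genes for amino acid uptake and synthesis, for charging tRNAs and for making cysteine and glutathione.

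The libraries carried the *atf-4* levels their labels call for. *atf-4* (chromosome X, 14809156 to 14810810, minus strand, WBcel235) measured 5289, 4184 and 6845 ppm in ATF-4OE, 3.81, 3.69 and 9.31 ppm in *atf-4(tm4397)* and 199.6, 168 and 215 ppm in WT. The strains did not overlap, and the mean was 28-fold that of WT in ATF-4OE and 0.0289-fold in *atf-4(tm4397)*. *rol-6*, a cuticle collagen gene, measured 4448, 3019 and 3943 ppm in ATF-4OE, 750.4, 655 and 1379 ppm in *atf-4(tm4397)* and 605, 962 and 572 ppm in WT, with every ATF-4OE library above the others and the mutant overlapping WT. Depth, read from the steps between low values, was 23.9 to 35.1 M reads per library. These genotype names are those of the centred and scaled values. The deposited RPKM values give 6 of the 9 libraries another genotype, and under those names 1 gene is ordered with ATF-4OE highest and 0 with ATF-4OE lowest. Another deposited set, of the most regulated genes only, has the genotype used here for all 9 libraries but exchanges the numbers of mutant replicates 2 and 3. Marker genes of tissues moved with the strains too. Summed over its 23 genes, the neuronal level was 1729 to 2045 ppm in ATF-4OE, 1010 to 1207 ppm in *atf-4(tm4397)* and 1036 to 1265 ppm in WT, and 25 body wall muscle genes summed to 14868 to 17476 ppm in ATF-4OE, 10767 to 11315 ppm in the mutant and 10389 to 12097 ppm in WT. The 20 intestinal marker genes summed to 7334 to 10560 ppm in ATF-4OE, 9358 to 13672 ppm in the mutant and 13830 to 17175 ppm in WT. None of the muscle or intestinal genes lay below 1 ppm in every library of a strain, and 1 neuronal gene did in WT. In whole animals, fewer cells of a type and less RNA per cell cannot be told apart.

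Which strain most often lay in the middle depended on the limits and on single libraries. With the same separation and fold limits, *atf-4(tm4397)* lay between ATF-4OE and WT in 128 genes, against the 86 with WT in the middle and 5 with ATF-4OE in the middle. Of the 128 genes, 54 were highest in ATF-4OE and lowest in WT, and 74 were lowest in ATF-4OE and highest in WT. Separation alone, without the fold limit, held in 279 genes with the mutant in the middle, 171 with WT in the middle and 11 with ATF-4OE in the middle. The order of WT and mutant turned round at 1.5-fold, with 31 genes with WT in the middle and 29 with the mutant, without mutant replicate 1, with 543 and 213, and without WT replicate 3, with 178 and 115. Most of the selection came from the mutant step. The 3 WT libraries lay below every ATF-4OE library in 2827 genes, the 3 mutant libraries lay below every WT library in 900 genes, and 126 genes had both. In the other direction ATF-4OE was below WT in 2598 genes, WT was below the mutant in 685 genes, and both held in 45. When strains were compared only within each replicate number, with the same level and fold limits, 147 genes were highest in ATF-4OE and 51 lowest. These had to hold all 62 and all 24, since groups that do not overlap are ordered under any pairing. The labels say that the strains of a replicate were grown together, but the deposited sets differ on mutant numbers 2 and 3.

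**Figure D1:**
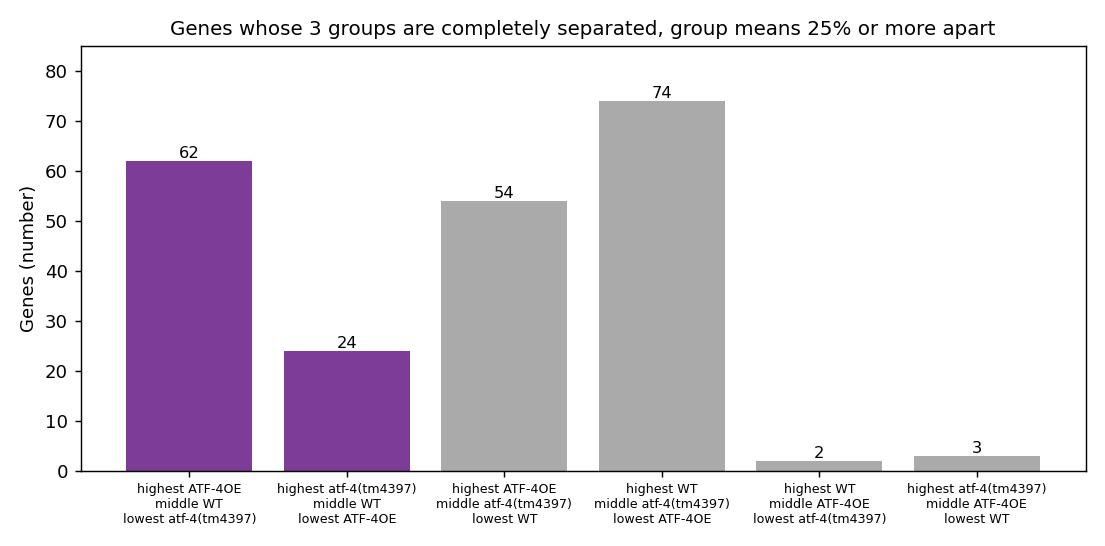
Number of genes (vertical axis) in each of the 6 possible orders of the 3 strains, with complete separation of the libraries and group means 25% or more apart at each step. Purple bars are the 62 and 24 genes with WT in the middle, and grey bars the other orders, of which those with the mutant in the middle hold 54 and 74 genes and those with ATF-4OE in the middle 2 and 3.

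The step between ATF-4OE and WT was usually the larger one. Among the 62 genes highest in ATF-4OE, the median ATF-4OE level was 1.69-fold that of WT and the median WT level 1.41-fold that of *atf-4(tm4397)*. The ATF-4OE step was the larger in 51 of 62. Among the 24 genes lowest in ATF-4OE, WT was 1.83-fold above ATF-4OE and the mutant 1.68-fold above WT at the median, and the ATF-4OE step was the larger in 15 of 24. Steps of 2-fold or more on the ATF-4OE side were found in 17 and 8 of these genes, and on the mutant side in 8 and 6. In *atf-4* itself, ATF-4OE was 28-fold above WT and WT 34.6-fold above the mutant. The WT means of the 86 genes ran between 0.583 and 623 ppm, and 23 of them lay below 5 ppm, so these genes met the level limit only through another strain or a single library. The spread within a strain, as the median coefficient of variation, was 13.2% in ATF-4OE, 20.0% in the mutant and 12.3% in WT, and over all genes 12.4%, 16.3% and 11.6%.

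The same steps were set in a limma fit across all genes, with genes passing at a Benjamini-Hochberg adjusted p under 0.1. Between ATF-4OE and WT, 22.1% of all genes passed as higher and 14.4% as lower. Between *atf-4(tm4397)* and WT the shares were 0.0354% higher and 0.0177% lower, and between ATF-4OE and *atf-4(tm4397)* they were 19.8% and 13.8%. Of the ordered genes, 51 of 62 passed as higher and 16 of 24 as lower in ATF-4OE against WT, and all 62 and all 24 in ATF-4OE against the mutant. In *atf-4(tm4397)* against WT 0 of 86 passed, with 38 of 62 and 19 of 24 at an unadjusted p under 0.05, as had 1176 of all genes. The rule used these contrasts, so the counts describe the selection only. The fit did not leave out *atf-4*, the gene altered in the mutant. For the mutant against WT, the calls over all genes were 4 higher and 2 lower, 1 of the 2 a basic leucine zipper gene. With the replicate number as a block the calls were 2 and 2. Single libraries moved that number: without mutant replicate 1, 96 genes were called higher and 32 lower, and 2 of the 62 and 6 of the 24 ordered genes passed. Without WT replicate 1, 47 were called higher and 11 lower, and without each of the other libraries 1 to 3 higher and 2 lower.

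**Figure D2:**
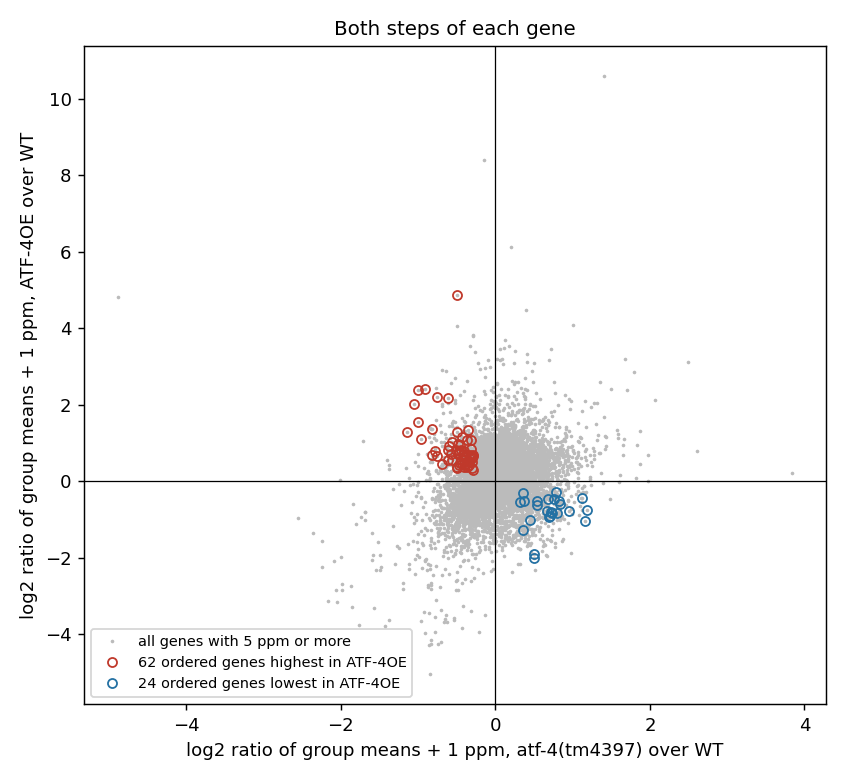
Each point is a gene, placed by the log2 ratio of *atf-4(tm4397)* over WT (horizontal axis) and of ATF-4OE over WT (vertical axis), both of group means + 1 ppm. Grey points are the genes with 5 ppm or more, red circles the 62 genes highest in ATF-4OE, in the upper left, and blue circles the 24 genes lowest in ATF-4OE, in the lower right; circles leave out a band beside each axis, which the fold limit sets.

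Amino acid transporters were among the genes with the widest range. *aat-8* and *aat-7* belong to a family of transporters that carry amino acids across cell membranes. *aat-8* (chromosome IV, 3862033 to 3865044, minus strand, WBcel235) measured 22.6, 28.9 and 30.9 ppm in ATF-4OE, 0.974, 2.64 and 1.89 ppm in *atf-4(tm4397)* and 3.10, 3.34 and 6.58 ppm in WT. The ATF-4OE libraries were far above the rest, and mutant and WT libraries lay close without overlapping. The ATF-4OE mean was 6.33-fold that of WT and 15-fold that of the mutant. *aat-7* (chromosome II, 1386870 to 1391639, plus strand, WBcel235) measured 17.5, 19.3 and 21.8 ppm in ATF-4OE, 2.53, 2.07 and 1.35 ppm in *atf-4(tm4397)* and 3.67, 3.47 and 3.58 ppm in WT, so that its 3 WT libraries were nearly equal and its ATF-4OE mean was 9.86-fold that of the mutant. These were 2 of the 30 amino acid transporter genes with the level needed (6.67%), beside 0.549% of all genes tested in that direction. In limma, 14 of the 30 were higher and 5 lower in ATF-4OE against WT, beside 22.1% and 14.4% of all genes. The median log2 difference of the 30 was 0.33, beside 0.01 over all genes. The mutant against WT gave 0 higher and 0 lower in limma (2 and 6 at an unadjusted p under 0.05) and a median of 0.01, beside 0.02 over all genes.

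The widest range of all belonged to *C27B7.9*, a protein coding gene with no other name (chromosome IV, 8915472 to 8916110, minus strand, WBcel235). It measured 45.9, 56.8 and 34.1 ppm in ATF-4OE, 0.0966, 0.178 and 0.103 ppm in *atf-4(tm4397)* and 0.643, 0.619 and 0.485 ppm in WT. Its value steps correspond to about 621, 547 and 375 reads in ATF-4OE, to 1, 2 and 1 reads in *atf-4(tm4397)* and to 7, 6 and 5 reads in WT. Per read of depth, ATF-4OE held 77.8 times the WT level, and the mutant held 0.211 times that level. The mutant step of *C27B7.9* thus rests on 4 reads in the mutant against 18 in WT.

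*C42D4.3* and *F35B3.4* had the highest ATF-4OE levels of the leading genes. *C42D4.3* measured 788, 707 and 707 ppm in ATF-4OE, 70.9, 68.6 and 70.8 ppm in *atf-4(tm4397)* and 95.7, 243 and 84.9 ppm in WT. *F35B3.4* measured 406, 375 and 338 ppm in ATF-4OE, 47.4, 41.3 and 43.1 ppm in *atf-4(tm4397)* and 54.1, 171 and 50.9 ppm in WT. In both genes WT replicate 2 stood apart from the other WT libraries, being 2.69 and 3.26 times their mean. Without that library the ATF-4OE level was 8.13-fold that of WT in *C42D4.3* and 7.10-fold in *F35B3.4*, in place of 5.20-fold and 4.06-fold, and the WT level was 1.29-fold and 1.19-fold that of the mutant, in place of 2.01-fold and 2.09-fold, so *F35B3.4* then fell outside the fold limit. *Y17D7C.2* and *K01A6.7* had the same high WT library. *Y17D7C.2* measured 8.23, 7.69 and 8.37 ppm in ATF-4OE, 1.29, 0.415 and 1.38 ppm in *atf-4(tm4397)* and 1.66, 4.51 and 1.52 ppm in WT, and *K01A6.7* measured 18.1, 14.3 and 14.2 ppm in ATF-4OE, 2.72, 2.06 and 0.658 ppm in *atf-4(tm4397)* and 3.77, 7.41 and 2.73 ppm in WT. Without WT replicate 2, the ATF-4OE level of *Y17D7C.2* was 5.09-fold that of WT in place of 3.16-fold, and its WT level 1.55-fold that of the mutant in place of 2.49-fold. WT replicate 2 was 1.5 times the mean of the other WT libraries or more in 10 of the 62 genes (16.1%) and in 7.96% of all genes tested.

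The other leading genes spanned a wide range of levels. *drd-5*, one of a set of genes named for lower expression under dietary restriction, measured 219.9, 318 and 328 ppm in ATF-4OE, 70.6, 60.7 and 26.8 ppm in *atf-4(tm4397)* and 121, 87.2 and 144 ppm in WT. Its lowest library was mutant replicate 3, and its ATF-4OE mean was 2.46-fold that of WT. *C29F3.3* measured 108, 124 and 96.4 ppm in ATF-4OE, 16.8, 15.4 and 7.24 ppm in *atf-4(tm4397)* and 19.8, 31.1 and 17.9 ppm in WT, again with mutant replicate 3 well below the other mutants. *T26H5.14* measured 8.07, 12.2 and 15.2 ppm in ATF-4OE, 3.30, 1.99 and 0.810 ppm in *atf-4(tm4397)* and 4.35, 5.70 and 4.72 ppm in WT. In ppm its ATF-4OE libraries were the most spread of the 3 strains. *R11E3.2*, *C45G9.8*, *T23B12.11* and *K02G10.15* complete the 15 genes with the largest ratio of ATF-4OE to mutant means. Their ATF-4OE means were 4.12-fold, 3.88-fold, 3.56-fold and 3.54-fold those of the mutant, and their WT means lay between 2.2 and 8.53 ppm.

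**Figure D3:**
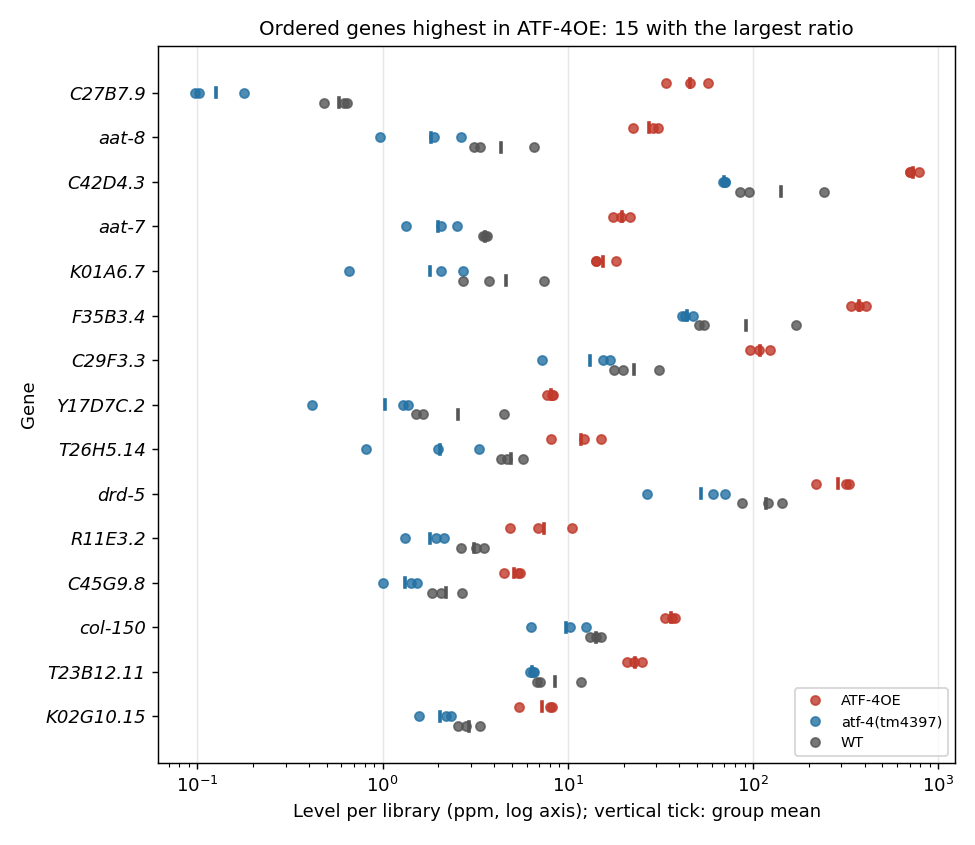
Level per library in ppm (horizontal log axis) of the 15 genes (rows) with the largest ratio of ATF-4OE to mutant means, in red for ATF-4OE, blue for *atf-4(tm4397)* and grey for WT, with a vertical tick at each group mean. *C27B7.9* lies lowest outside ATF-4OE, and the single high WT point of *C42D4.3* (243 ppm) and of *F35B3.4* (171 ppm) is replicate 2.

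Cuticle collagens were the largest family among the ordered genes. Collagens of this kind are secreted by the epidermis and crosslinked into the worm's outer cover, which is rebuilt at each moult. All 6 were highest in ATF-4OE. *col-150* measured 33.3, 38.1 and 36.3 ppm in ATF-4OE, 12.6, 10.3 and 6.36 ppm in *atf-4(tm4397)* and 14.3, 15.2 and 13.2 ppm in WT. *col-13* measured 219.9, 256 and 211 ppm in ATF-4OE, 87.4, 83.4 and 56.9 ppm in *atf-4(tm4397)* and 106, 193 and 96.7 ppm in WT, with 1 high WT library. *col-94* measured 173, 168 and 189 ppm in ATF-4OE, 62.4, 64 and 63.8 ppm in *atf-4(tm4397)* and 80.3, 121 and 66.5 ppm in WT, and its mutant libraries were almost equal. The abundant *col-118* measured 514, 523 and 513 ppm in ATF-4OE, 227, 199 and 155 ppm in *atf-4(tm4397)* and 256, 435 and 294 ppm in WT, with ATF-4OE libraries within a few percent of each other. *col-159* measured 694, 735 and 835 ppm in ATF-4OE, 335, 359 and 243 ppm in *atf-4(tm4397)* and 429.6, 574 and 387 ppm in WT. *col-92* measured 206, 219.7 and 268 ppm in ATF-4OE, 108, 112 and 81.8 ppm in *atf-4(tm4397)* and 141, 170.1 and 113 ppm in WT. Across the 6, the ATF-4OE mean was 1.57 to 2.53-fold that of WT and the WT mean 1.41 to 1.74-fold that of the mutant. In all 6 the highest WT library was replicate 2, and without it *col-94* no longer met the fold limit at the mutant step. Without mutant replicate 3, *col-150* no longer met the rule. The 6 are 5% of the 120 collagen genes with the level needed, beside 0.549% of all genes tested in that direction. In limma, 33 of the 120 were higher in ATF-4OE than in WT and 8 lower, with a median log2 difference of 0.37. In ATF-4OE against the mutant, 39 were higher and 3 lower. The shares over all genes were 22.1% and 14.4% in the first comparison and 19.8% and 13.8% in the second. The mutant against WT gave 0 higher and 0 lower (15 and 16 at an unadjusted p under 0.05) with a median of −0.30, beside 0.02 over all genes. The summed level of all 125 measured collagen genes other than *rol-6* overlapped between the strains, at 53612 to 58950 ppm in ATF-4OE, 45561 to 68052 ppm in the mutant and 46147 to 58610 ppm in WT. Sums of 28 moulting genes were 3572 to 5043 ppm in ATF-4OE, 4213 to 5981 ppm in the mutant and 2744 to 3863 ppm in WT. Their part in the collagen values was not tested. Collagen genes resemble each other, and how reads that match several copies were counted is not given in the sources used here. *col-159* also overlaps *col-160* on its strand.

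2 genes of FMRFamide-like neuropeptides, small signalling peptides that neurons release, were highest in ATF-4OE. *flp-20* measured 52.1, 48.0 and 45.8 ppm in ATF-4OE, 29.2, 22.6 and 18.2 ppm in *atf-4(tm4397)* and 29.5, 35.1 and 29.2 ppm in WT. Mutant replicate 1 lay just below the lowest WT library. *flp-34* measured 35, 33.0 and 36 ppm in ATF-4OE, 19.7, 18.1 and 15.2 ppm in *atf-4(tm4397)* and 21.3, 23.6 and 23.1 ppm in WT, with narrow groups throughout. *flp-20* and *flp-34* were 2 of 92 neuropeptide genes with the level needed (2.17%), beside 0.549% of all genes tested in that direction. In limma, ATF-4OE against WT gave 58 of the 92 as higher and 1 as lower, beside 22.1% and 14.4% of all genes. ATF-4OE against the mutant gave 58 and 0, beside 19.8% and 13.8%. The mutant against WT gave 0 and 0 (4 and 5 at an unadjusted p under 0.05). The median log2 difference of the 92 was 0.78 for ATF-4OE against WT and 0.03 for the mutant against WT. Neuronal markers had medians of 0.83 and 0.02, and 19 of 21 were higher in ATF-4OE against WT. The part of this shift in the neuropeptide values was not tested. Without mutant replicate 3 neither *flp-20* nor *flp-34* kept the step needed between WT and mutant.

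Lipid, drug and hormone genes gave single members. *far-6*, which encodes a fatty acid and retinol binding protein, measured 75.5, 77.4 and 76.2 ppm in ATF-4OE, 47.9, 46.2 and 41.6 ppm in *atf-4(tm4397)* and 50.6, 52.8 and 72.4 ppm in WT. Its WT replicate 3 came close to ATF-4OE. *far-6* fell outside the rule without mutant replicate 3, and without WT replicate 1, 2 or 3. *ugt-33*, a UDP-glucuronosyltransferase of the family that attaches sugars to small molecules, measured 6.98, 6.01 and 6.43 ppm in ATF-4OE, 3.12, 2.77 and 3.38 ppm in *atf-4(tm4397)* and 4.47, 4.92 and 4.14 ppm in WT. *nhr-208*, a nuclear hormone receptor gene, measured 4.07, 5.07 and 3.93 ppm in ATF-4OE, 2.16, 1.96 and 1.49 ppm in *atf-4(tm4397)* and 2.38, 2.6 and 2.67 ppm in WT and was the least abundant of the 62 by its highest library. *nhr-208* fell outside the rule without ATF-4OE replicate 2 or mutant replicate 3. The lists these genes come from hold 19, 43 and 131 genes with the level needed. The single members are 5.26%, 2.33% and 0.763% of them, beside 0.549% of all genes tested in that direction.

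**Figure D4:**
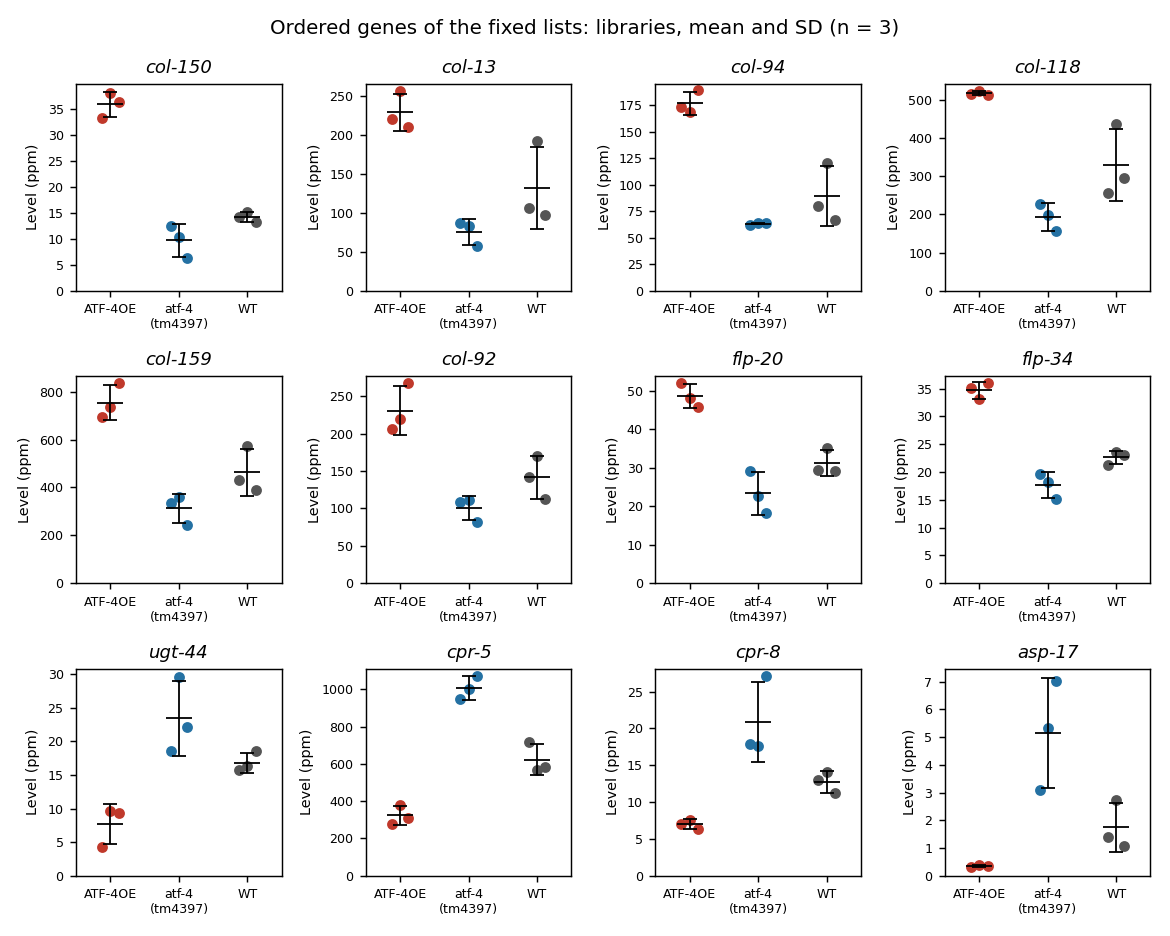
Level in ppm (vertical axes, each from 0) of 12 ordered genes in ATF-4OE (red), *atf-4(tm4397)* (blue) and WT (grey), with each library as a point, the mean as a bar and the SD as whiskers (n = 3). The 6 collagen and 2 neuropeptide genes are highest in ATF-4OE, and *ugt-44*, *cpr-5*, *cpr-8* and *asp-17* are lowest there.

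Several of the other genes highest in ATF-4OE have known roles in the gut muscles, in signalling or in neurons. These were picked out after their values were seen. *aex-5* encodes a proprotein convertase, *exp-1* an excitatory GABA receptor of the enteric muscles, and both are needed for expulsion in the defecation cycle, after which *pbo-6* is named as well. *aex-5* measured 71.9, 69.6 and 117.8 ppm in ATF-4OE, 40.2, 36.8 and 23.9 ppm in *atf-4(tm4397)* and 47.6, 42.2 and 55.4 ppm in WT. *exp-1* measured 9.67, 8.07 and 8.20 ppm in ATF-4OE, 4.12, 2.75 and 3.38 ppm in *atf-4(tm4397)* and 4.65, 5.04 and 5.10 ppm in WT. *pbo-6* measured 13, 9.85 and 13.1 ppm in ATF-4OE, 6.34, 5.32 and 3.76 ppm in *atf-4(tm4397)* and 7.79, 6.86 and 6.40 ppm in WT. The ATF-4OE mean was 1.70 to 1.79-fold that of WT in the 3 genes, and the WT mean 1.37 to 1.44-fold that of the mutant. Without mutant replicate 3 *pbo-6* no longer met the rule. *aex-5* and *exp-1* overlap other genes on the opposite strand. *mab-9*, a T-box transcription factor gene needed in the hindgut, measured 16.2, 15.4 and 14.2 ppm in ATF-4OE, 7.60, 5.86 and 4.99 ppm in *atf-4(tm4397)* and 7.81, 9.58 and 7.99 ppm in WT.

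*egl-20* encodes a Wnt ligand made in the tail. It measured 89.8, 71.3 and 90.7 ppm in ATF-4OE, 49.5, 40.7 and 33.1 ppm in *atf-4(tm4397)* and 52.3, 51.7 and 51.6 ppm in WT, and its WT libraries were nearly identical. *kal-1*, the worm counterpart of the human Kallmann syndrome gene, measured 42.5, 33.8 and 38.3 ppm in ATF-4OE, 18.1, 14 and 14.1 ppm in *atf-4(tm4397)* and 20.1, 19.1 and 24.6 ppm in WT. *npr-4*, a neuropeptide receptor gene, measured 5.88, 3.75 and 5.44 ppm in ATF-4OE, 2.28, 1.59 and 2.22 ppm in *atf-4(tm4397)* and 2.31, 3.38 and 2.46 ppm in WT. *twk-48*, of a potassium channel family, measured 17.2, 14.4 and 15.7 ppm in ATF-4OE, 5.78, 5.30 and 4.95 ppm in *atf-4(tm4397)* and 6.52, 8.32 and 5.91 ppm in WT. *mec-9*, which encodes an extracellular protein of touch receptor neurons, measured 7.77, 5.56 and 8.13 ppm in ATF-4OE, 4.53, 3.72 and 3.13 ppm in *atf-4(tm4397)* and 5.22, 5.21 and 4.78 ppm in WT. In each of these 5 genes the WT mean was 1.26 to 1.38-fold that of the mutant, which is near the limit of the rule. Without mutant replicate 3, *egl-20*, *twk-48* and *mec-9* no longer met the rule. *npr-4* fell outside it without mutant replicate 2 or WT replicate 2, and *twk-48* also without WT replicate 2.

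2 enzymes of amino acid breakdown were ordered in the same way. *pah-1* encodes phenylalanine hydroxylase, which turns phenylalanine into tyrosine. It measured 289, 229 and 314 ppm in ATF-4OE, 167, 139 and 120.1 ppm in *atf-4(tm4397)* and 202, 188 and 177 ppm in WT. *amdh-1*, an amidohydrolase gene related to human AMDHD1 of histidine breakdown, measured 37.1, 30.2 and 40.9 ppm in ATF-4OE, 19.4, 17.1 and 16.7 ppm in *atf-4(tm4397)* and 20.1, 23.9 and 23 ppm in WT. The ATF-4OE means were 1.47-fold and 1.61-fold those of WT, and the WT means 1.33-fold and 1.26-fold those of the mutant. Without mutant replicate 3 neither *pah-1* nor *amdh-1* met the rule. *amdh-1* also fell outside it without mutant replicate 2, WT replicate 2 or WT replicate 3. Among structural genes, the intermediate filament gene *ifa-1* measured 89, 69.7 and 91.9 ppm in ATF-4OE, 46.6, 54.6 and 39.5 ppm in *atf-4(tm4397)* and 58.8, 61.6 and 63.9 ppm in WT, the sarcoglycan gene *sgn-1* measured 18.2, 12.9 and 15 ppm in ATF-4OE, 9.09, 8.70 and 7.57 ppm in *atf-4(tm4397)* and 10.0, 9.76 and 12.1 ppm in WT and the testin gene *tes-1* measured 18.4, 16.6 and 14.9 ppm in ATF-4OE, 10.4, 10.4 and 10.3 ppm in *atf-4(tm4397)* and 11.7, 14.5 and 12.8 ppm in WT. *tes-1* lay at the limit of the rule, with a mutant step of 1.252-fold. It fell outside the rule without ATF-4OE replicate 1, WT replicate 1 or WT replicate 2. *ifa-1* and *sgn-1* fell outside it without mutant replicate 3, and *sgn-1* also without WT replicate 3. The transthyretin-related *ttr-17* and the short-chain dehydrogenase *dhs-17* had ATF-4OE means of 69.1 ± 16.2 and 6.36 ± 1.40 ppm (SD, n = 3 here and below), against 23.5 ± 6.97 and 2.17 ± 0.172 ppm in the mutant and 36.1 ± 7.56 and 3.39 ± 0.247 ppm in WT.

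The remaining 21 genes highest in ATF-4OE carry only a sequence name. They are *F46C3.6*, *F10A3.4*, *F09E5.14*, *H02F09.3*, *ZK971.1*, *T22C8.6*, *F22D6.15*, *C49C8.5*, *T22E5.6*, *T27E4.7*, *F13D12.10*, *F41B4.1*, *K02D10.4*, *ZK1073.2*, *Y59C2A.1*, *R02E4.2*, *Y57E12AR.1*, *C49C8.2*, *T19D12.6*, *Y18D10A.23* and *W03G11.3*. Their ATF-4OE means were 1.26 to 2.33-fold those of WT and their WT means 1.252 to 1.79-fold those of the mutant. *C49C8.5* and *C49C8.2* overlap on opposite strands, so reads of one may have been counted in the other.

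In the opposite direction, *asp-17* had the largest ratio of mutant to ATF-4OE means, and a pair of other protease genes was among the 24. *asp-17* belongs to the aspartyl proteases, and *cpr-5* and *cpr-8* to the cathepsin B-like cysteine proteases. *asp-17* (chromosome V, 19035723 to 19037322, minus strand, WBcel235) measured 0.307, 0.389 and 0.340 ppm in ATF-4OE, 3.09, 5.33 and 7.03 ppm in *atf-4(tm4397)* and 1.41, 2.74 and 1.09 ppm in WT. No strain overlapped another, and the ATF-4OE libraries were about 9 to 10 reads deep. The mutant mean was 14.9-fold that of ATF-4OE. *cpr-5* (chromosome V, 1132598 to 1134036, minus strand, WBcel235) measured 279.8, 379 and 311 ppm in ATF-4OE, 946, 1003 and 1070 ppm in *atf-4(tm4397)* and 717, 567 and 584 ppm in WT, which made it the most abundant of the 24 genes. *cpr-8* (chromosome V, 1134602 to 1139182, plus strand, WBcel235) measured 7.04, 7.62 and 6.37 ppm in ATF-4OE, 17.9, 17.6 and 27.1 ppm in *atf-4(tm4397)* and 13, 14 and 11.2 ppm in WT. The mutant means were 1.62-fold and 1.64-fold those of WT, and the WT means 1.93-fold and 1.81-fold those of ATF-4OE. These were 3 of 21 aspartyl and cathepsin protease genes (14.3%), beside 0.213% of all genes tested in that direction. In limma, 0 of the 21 were higher and 19 lower in ATF-4OE against WT, with a median log2 difference of −0.90. The shares over all genes were 22.1% and 14.4%. Between mutant and WT 0 passed (3 higher and 6 lower at an unadjusted p under 0.05), with a median of −0.35. The 3 ordered genes were thus higher in the mutant than in WT while the family's median was lower. Intestinal markers had medians of −0.72 for ATF-4OE against WT and −0.34 for the mutant against WT, and 13 of 19 were lower in ATF-4OE against WT. *asp-1* and *cpr-6* are in both lists. The part of this shift in the protease values was not tested.

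*drd-1*, like *drd-5*, is named for lower expression under dietary restriction, but it had the opposite order. It measured 3.88, 4.13 and 3.95 ppm in ATF-4OE, 22.3, 27.5 and 32.8 ppm in *atf-4(tm4397)* and 18.9, 17.8 and 20.6 ppm in WT. Its ATF-4OE libraries were almost equal, and WT was 4.79-fold above them, whereas the mutant was 1.44-fold above WT. *papl-1* measured 9.56, 11.3 and 8.57 ppm in ATF-4OE, 43.9, 62.7 and 62.2 ppm in *atf-4(tm4397)* and 38.1, 41.2 and 38.8 ppm in WT, and WT was 4.01-fold above ATF-4OE. *asm-2*, an acid sphingomyelinase gene, measured 1.89, 1.98 and 1.21 ppm in ATF-4OE, 6.33, 8.56 and 7.07 ppm in *atf-4(tm4397)* and 5.78, 4.53 and 6.12 ppm in WT. In these 3 genes the ATF-4OE step was the larger. In *B0511.11* and *R193.2* the mutant step was the larger. *B0511.11* measured 0.947, 1.48 and 1.19 ppm in ATF-4OE, 4.72, 7.47 and 4.15 ppm in *atf-4(tm4397)* and 2.03, 1.5 and 2.4 ppm in WT. ATF-4OE and WT libraries nearly touched. *R193.2* measured 6.17, 4.92 and 5.39 ppm in ATF-4OE, 13.8, 20.1 and 38.4 ppm in *atf-4(tm4397)* and 11, 10.6 and 8.40 ppm in WT, with mutant replicate 3 far above the other mutants. *F38A1.9* measured 0.533, 0.416 and 1.02 ppm in ATF-4OE, 2.01, 2.21 and 6.24 ppm in *atf-4(tm4397)* and 1.40, 1.82 and 1.32 ppm in WT, again with a single high mutant library, without which its mutant step was 1.40-fold in place of 2.31-fold, and *T25G12.6* measured 1.83, 1.14 and 1.17 ppm in ATF-4OE, 3.70, 6.26 and 10.6 ppm in *atf-4(tm4397)* and 3.61, 3.48 and 2.1 ppm in WT.

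2 UDP-glucuronosyltransferase genes had the reverse order of *ugt-33*. *ugt-44* measured 4.34, 9.66 and 9.32 ppm in ATF-4OE, 18.5, 29.5 and 22.1 ppm in *atf-4(tm4397)* and 15.7, 16.3 and 18.5 ppm in WT. The lowest mutant library lay only just above the highest WT library. *ugt-62* measured 65.5, 96.2 and 67.2 ppm in ATF-4OE, 163, 131 and 125 ppm in *atf-4(tm4397)* and 111, 124 and 99.2 ppm in WT and had a mutant step of 1.253-fold, the smallest of the 24. Of the 43 genes of this family, 2 were lowest in ATF-4OE (4.65%) and 1 highest (2.33%), beside 0.213% and 0.549% of all genes tested. In limma, 5 of the 43 were higher and 23 lower in ATF-4OE against WT, with a median log2 difference of −0.46. The shares over all genes were 22.1% and 14.4%. Between mutant and WT 0 passed (4 higher and 7 lower at an unadjusted p under 0.05), with a median of −0.13. *dhs-8*, a short-chain dehydrogenase gene, measured 3.30, 3.33 and 3.31 ppm in ATF-4OE, 9.77, 12.7 and 12.2 ppm in *atf-4(tm4397)* and 7.41, 5.97 and 6.41 ppm in WT. *clec-41*, which encodes a C-type lectin, measured 20.7, 24.8 and 20.0 ppm in ATF-4OE, 44.4, 52.0 and 53.6 ppm in *atf-4(tm4397)* and 33.2, 36.9 and 32 ppm in WT and was 1 of 67 genes of its list. That share, 1.49%, rests on 1 gene and stands beside 0.213% of all genes tested in the same direction. *cblc-1*, a gene of vitamin B12 handling, measured 42.5, 52.6 and 46.5 ppm in ATF-4OE, 79.2, 86.3 and 97.6 ppm in *atf-4(tm4397)* and 70.8, 73.6 and 58.8 ppm in WT.

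*W03D8.8* was 1 of 179 worm orthologs of the targets that mammalian ATF4 shares with CHOP, another transcription factor of the stress response. That share, 0.559%, stands beside 0.213% of all genes tested in the same direction, lowest in ATF-4OE, and rests on 1 gene. *W03D8.8* measured 3.32, 3.78 and 2.41 ppm in ATF-4OE, 9.32, 10.4 and 15.4 ppm in *atf-4(tm4397)* and 5.89, 7.9 and 6.63 ppm in WT. *nspg-8*, of a nematode-specific peptide family, measured 7.46, 6.80 and 4.39 ppm in ATF-4OE, 15.9, 19.2 and 26.3 ppm in *atf-4(tm4397)* and 14.1, 12.8 and 8.83 ppm in WT, and *F15E6.4* measured 11.3, 12 and 10.8 ppm in ATF-4OE, 32.9, 34.6 and 44 ppm in *atf-4(tm4397)* and 18.1, 18.8 and 25.8 ppm in WT. *F21D5.3*, *M28.10* and *T07D3.9* had mutant means 2.77-fold, 2.41-fold and 2.25-fold those of ATF-4OE.

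3 of the genes lowest in ATF-4OE act in the germ line. *dsb-2* is needed for the double-strand breaks of meiosis, *pid-5* for silencing by piRNAs, and *mes-6* belongs to a Polycomb complex. *dsb-2* measured 1.91, 2.74 and 2.50 ppm in ATF-4OE, 4.21, 7.30 and 6.41 ppm in *atf-4(tm4397)* and 3.36, 4.17 and 3.91 ppm in WT. *pid-5* measured 1.54, 1.56 and 1.57 ppm in ATF-4OE, 2.18, 6.52 and 4.34 ppm in *atf-4(tm4397)* and 2.14, 2.02 and 2.11 ppm in WT, where ATF-4OE and WT were tight and the mutant libraries were far apart. *mes-6* measured 10.21, 7.52 and 10.1 ppm in ATF-4OE, 13.6, 16.1 and 16.4 ppm in *atf-4(tm4397)* and 12.7, 10.7 and 12 ppm in WT. Germline markers differed too: 21 genes summed to 308 to 328 ppm in ATF-4OE, 354 to 848 ppm in the mutant and 409 to 449 ppm in WT, with mutant replicates 2 and 3 highest. Sperm genes differed more between replicates than between strains, at 10.4, 68.6 and 39.7 ppm in ATF-4OE, 22, 831 and 13.8 ppm in the mutant and 95, 19.1 and 473 ppm in WT over 55 genes, of which 29 were below 1 ppm in every ATF-4OE library. The part of germ line RNA in these 3 genes was not tested.

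**Figure D5:**
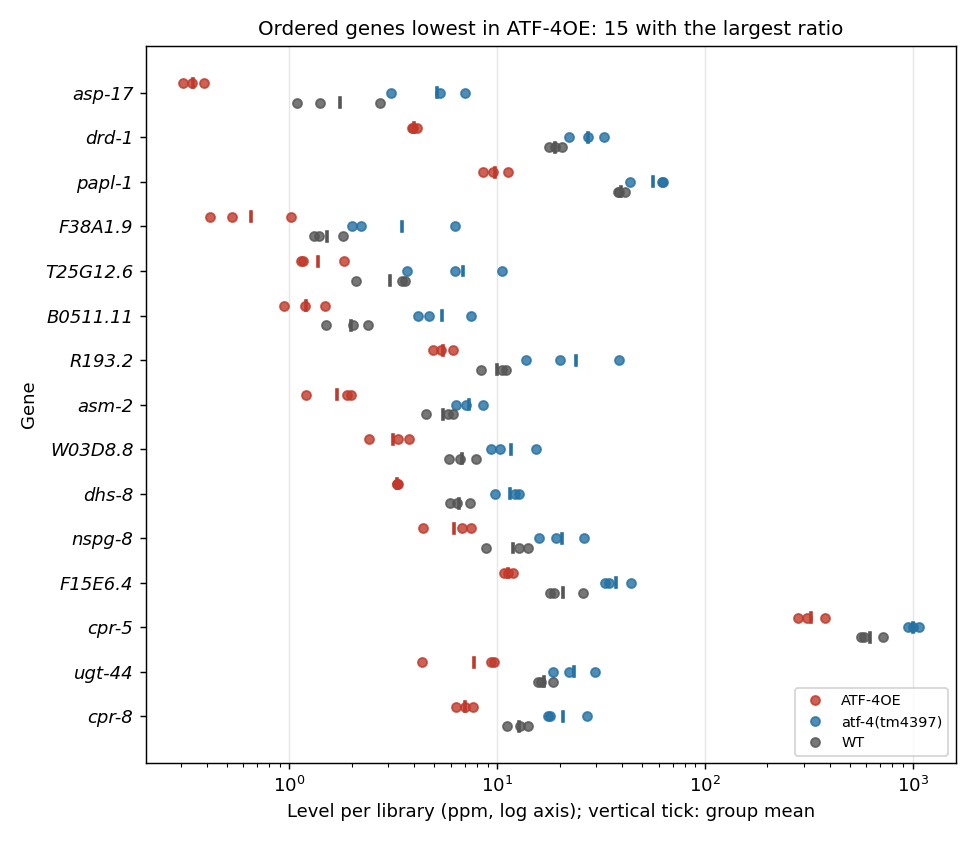
Level per library in ppm (horizontal log axis) of the 15 genes lowest in ATF-4OE with the largest ratio of mutant to ATF-4OE means, in red for ATF-4OE, blue for *atf-4(tm4397)* and grey for WT, with a vertical tick at each group mean. *asp-17* has the widest range, and *cpr-5* is the most abundant.

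Of the 47 gene lists that were compared, 9 held an ordered gene. With 0.549% and 0.213% of all genes tested ordered in each direction, a list of the sizes below would hold few or none at the background share, so the counts of 0 are no result about these lists. The limma counts below stand beside 22.1% of all genes higher and 14.4% lower in ATF-4OE against WT, and 19.8% and 13.8% in ATF-4OE against the mutant. Among 218 orthologs of mammalian targets listed for ATF4 and not for CHOP 0 were ordered. In ATF-4OE against WT 50 of these were higher and 38 lower in limma, which is near the shares over all genes. Between mutant and WT 0 passed. At an unadjusted p under 0.05, 13 were higher and 11 lower, beside 1176 of all 11287 genes in either direction. 0 of 33 aminoacyl-tRNA synthetase genes were ordered. For these genes ATF-4OE against WT gave 0 higher and 8 lower, and ATF-4OE against the mutant 0 higher and 14 lower. Amino acid synthesis had 0 of 20, with 4 higher and 6 lower in ATF-4OE against WT. Genes of transsulfuration, H2S and glutathione had 0 of 24, with 7 higher and 4 lower. *cth-2* of that list encodes a cystathionine gamma-lyase, an enzyme of cysteine synthesis. It measured 286, 289 and 293 ppm in ATF-4OE, 169, 173 and 105 ppm in *atf-4(tm4397)* and 225, 136 and 214 ppm in WT, and although the means had the order of the 62 genes, the mutant overlapped WT. Heat shock proteins had 0 of 19, with 5 higher and 3 lower, the endoplasmic reticulum stress list 0 of 20, with 2 higher and 0 lower, and basic leucine zipper genes 0 of 25, with 13 higher and 3 lower. These limma counts did not leave out *atf-4* itself, and 1 of the 25 passed as lower in the mutant against WT. Antimicrobial peptides of the epidermis, of which 24 of 32 were higher in ATF-4OE against WT with a median log2 difference of 1.54, had 0 ordered genes too, and their median for the mutant against WT was 0.06.

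Single libraries had a strong part in the selection. Among the 62 genes, mutant replicate 3 was the lowest mutant library in 43 (69.4%, against 33.3% of all genes tested) and mutant replicate 1 the highest in 44 (71.0%, against 25.5%). Among the 24, mutant replicate 1 was the lowest mutant library in 20 (83.3%, against 47.1%) and mutant replicate 3 the highest in 16 (66.7%, against 39.1%). Without mutant replicate 1 the rule took 238 genes highest in ATF-4OE and 305 lowest, which held all 62 and 23 of the 24. Without mutant replicate 3 it took 69 and 28, and only 42 of the 62 and 22 of the 24 were among them. Leaving out WT replicate 1 gave 125 and 38 genes, WT replicate 2 gave 92 and 41, and WT replicate 3 gave 145 and 33. A rule on fewer libraries is easier to meet, which alone raises such counts. Leaving out a library cannot undo the separation of a gene already chosen, so only the fold and level limits could fail for the 62 and the 24. With that limit, 31 of the 62 genes and 15 of the 24 met the rule whichever library was left out, including *aat-7*, *aat-8*, *drd-5*, *col-13*, *col-118*, *aex-5*, *exp-1*, *asp-17*, *drd-1*, *cpr-5* and *cpr-8*. With libraries scaled by median ratios, which moved them by factors of 0.937 to 1.06, 54 and 32 genes were taken, with 41 of the 62 and 21 of the 24 among them.

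Genes at the edge of the rule differed little on its sides. By fold, *W03G11.3* (1.252), *tes-1* (1.252) and *ZK1073.2* (1.254) lay just inside, by their smaller step, and *glb-1* (1.249), *gpla-1* (1.245) and *plr-1* (1.243) just outside. In the other direction *ugt-62* (1.253), *mes-6* (1.272) and *cblc-1* (1.295) lay inside, and *hrg-4* (1.247), *cdt-2* (1.236) and *npp-11* (1.217) outside. By highest level, *nhr-208* (5.07 ppm), *C45G9.8* (5.50 ppm) and *npr-4* (5.88 ppm) lay inside, and *F32G8.3* (4.88 ppm), *Y51H7BR.4* (4.77 ppm) and *T20D4.3* (4.40 ppm) outside. Among the genes lowest in ATF-4OE, *F38A1.9* (6.24 ppm), *pid-5* (6.52 ppm) and *asp-17* (7.03 ppm) lay inside and *fog-2* (4.55 ppm), *C31C9.6* (3.67 ppm) and *clec-26* (3.40 ppm) outside. 52 of the 86 genes had 100 or more reads in every library by the estimated depth, and 5 had fewer than 10 in some library: *C27B7.9*, *F38A1.9*, *K01A6.7*, *T26H5.14* and *asp-17*.

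The position of the genes was not part of the rule. The 62 genes lay on every chromosome, 4 on I, 11 on II, 6 on III, 12 on IV, 15 on V and 14 on X, which is 22.6% on X where 14.3% of all genes tested lie. The 24 had 2 on I, 6 on II, 2 on III, 5 on IV, 6 on V and 3 on X. *atf-4* itself is on X, and the nearest ordered gene, *ZK1073.2*, starts 1295 kb from it. 4 pairs, each with the same direction in both genes, were close neighbours, here with at most 4 protein coding genes between them. Such pairs were not counted over all genes tested, so their number is a description only. *cpr-5* and *cpr-8* lie next to each other on chromosome V, 565 bases apart and on opposite strands. *col-92* and *col-94* have 1 gene between them on chromosome III, *pah-1* and *sgn-1* have 3 on chromosome II, and *C49C8.5* overlaps *C49C8.2* on chromosome IV. All 86 genes are protein coding. 32 of the 62 (51.6%) and 9 of the 24 (37.5%) have only a sequence name, against 38.9% of all genes tested. Their exons span a median of 1187 bases in the 62 and 1440 bases in the 24, beside 1410 bases over all genes tested. 23 of the 86 overlap another measured gene, and whether strand was used in counting is not given in the sources used here.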

How the data were processed

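Poly(A) RNA of whole L4 animals was sequenced as single reads in 1 lane. Per the labels and the study's methods, the authors mapped to WBcel235 by STAR 2.4.0j and took gene counts by featureCounts, discarded genes under 1 CPM and deposited RPKM. They also deposited scores, RPKM centred on each library's mean and divided by its SD on a linear scale, for 14218 genes, and scores of the most regulated genes. The scores of the larger sheet were used under their own names: the column minimum was subtracted and each library scaled to a sum of 1000000 (ppm), a constant multiple of RPKM. RPKM values were used for depth, and 46.6 to 54.6% of low values per library were whole within 0.02 read, so reads could not be recovered in general and count models were not used. The deposited comparison columns and term lists were not used.

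The rule took all 9 libraries. limma 3.58.1 in R 4.3.3 fitted log2(ppm + 1) of the 11287 genes with 5 ppm or more, in 1 model with trend, two-sided, with Benjamini-Hochberg adjustment over all genes; such log2 differences understate those of low genes. An exact permutation test of 3 libraries against 3 could not go below p = 0.1. The labels say that the strains of a replicate were grown together. Deviations of same-numbered libraries from their group means correlated at −0.68 to 0.31 (Pearson's r across genes), and at 0.68 and 0.76 between mutant and WT once mutant numbers 2 and 3 were exchanged. The limma script was tested on simulated data. Per-library values were given for *atf-4*, *rol-6*, the 15 genes per direction with the largest ratio of ATF-4OE to mutant means either way, up to 4 per list, and further members picked for their known roles. The members and the lists were chosen with earlier results of these data known. Names and positions came from Ensembl release 115 of WBcel235, which held all 86 genes. Promoter and protein sequences were not analysed here. The software was matplotlib 3.10.9 for figures, and numpy 2.4.6, pandas 2.3.3 and Python 3.11.15 for tables.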

Additional observations from a re-analysis of the deposited data

How the results depend on the processing

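Counts of ordered genes depended on every limit of the rule. Genes highest and genes lowest in ATF-4OE numbered 126 and 45 with no fold limit, 19 and 12 with 1.5-fold at each step, and 35 and 14 with a level of 20 ppm. Within replicate numbers (replicate block) they numbered 147 and 51, and 151 and 57 with mutant numbers 2 and 3 exchanged, a choice made after seeing the data. With the names of the RPKM values they numbered 1 and 0. Leaving out single libraries gave 62 to 238 and 25 to 305. No level limit, median ratio scaling and means + 1 kept both counts within 1.5 times. Genes with the mutant in the middle numbered 279 with no fold limit, 29 at 1.5-fold, 71 at 20 ppm, 1 with the RPKM names and 115 to 368 without single libraries. With WT in the middle these counts were 171, 31, 49, 1 and 90 to 543, so the order of the 2 turned round at 1.5-fold and without mutant replicate 1 or WT replicate 3, and with ATF-4OE in the middle 11, 2, 4, 0 and 3 to 31.

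In limma, the replicate block gave 2 genes higher in *atf-4(tm4397)* against WT in place of 4, also with mutant numbers exchanged, and changed no other count by over 1.5 times. Without single libraries, ATF-4OE against WT gave 1535 to 2681 higher and 1010 to 1925 lower, the mutant against WT 1 to 96 and 2 to 32, and ATF-4OE against the mutant 1452 to 2206 and 771 to 2108. The cause of these shifts was not tested. None of the 84 log2 ratios of 42 members changed sign under median ratio scaling. Without single libraries none could, since the members were chosen for groups that do not overlap. The size of 7 ratios of 4 genes moved by over 1.5 times. In *C42D4.3*, *F35B3.4* and *Y17D7C.2* these were the ratios of ATF-4OE and of the mutant to WT, without WT replicate 2. In *F38A1.9* it was the ratio of the mutant to WT, without mutant replicate 3. Depth limits the 5 genes with fewer than 10 reads in some library, and others too, since 52 of the 86 had 100 or more in every library. In *nhr-208*, about 57 reads in mutant replicate 1 (95% counting range 43.2 to 73.9) stood against 66 in WT replicate 1 (51.0 to 84.0).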
